A study of Mus musculus with 10 samples.

Results

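Expression of 10 genes that encode NF-κB transcription factor subunits and their inhibitors was compared between HIPK2 knockout and wild-type mouse cardiac tissue. The genes were chosen by name as Nfkb1, Nfkb2, Rel, Rela, Relb, Nfkbia, Nfkbie, Nfkbiz, Bcl3 and Tnfaip3, and every non-control probe that carries one of these names on the array was taken. This gave 20 of the 56605 probes, of which 18 passed the filter on dim probes, and all 10 genes were among the 20607 genes tested. The study holds 10 samples of total RNA from male mice, 5 from HIPK2 knockouts and 5 from wild types by their labels, and each sample has a 1-colour Agilent array of its own. The knockout carries a CRISPR deletion of 56 bases in the second exon of Hipk2, made by embryo injection and so not limited to heart cells, on a C57BL/6 background, and was crossed with C57BL/6 wild-type mice to expand the colony. No drug or surgery is named in the labels, and the age of the mice is not given in the sources used here. The labels number the replicates without saying that each is a separate mouse, so a p-value here speaks only of the variation among these arrays, which may be technical. HIPK2 is a nuclear kinase that phosphorylates regulators of transcription.

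NF-κB factors are dimers of the subunits encoded by Rela, Relb, Rel, Nfkb1 and Nfkb2, and inhibitor proteins of the IκB family hold many of these dimers in the cytoplasm until the IκB kinase marks the inhibitor for destruction. Many genes of the pathway, Nfkbia and Tnfaip3 among them, are themselves activated by NF-κB, which forms a negative feedback loop. In the heart the pathway responds to cytokines, ischaemia and mechanical load, in cardiomyocytes as well as in endothelial cells, fibroblasts and macrophages.

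The start sites of several of these genes hold matches to the 10-base NF-κB consensus, which was searched on both strands, with overlapping matches counted, from 250 bases before to 50 bases after each RefSeq gene start (build GRCm38.p6). A match was found for 6 of the 7 genes that had such a window, against 9.55% of all 27025 genes with a window; no match was found for Rela. The upstream sequences of Tnfaip3, Rel and Nfkbia and the site of Bcl3 are shown because the array results turn on these genes. They are written 5′ to 3′ on the gene's strand, with matches in capitals.
Tnfaip3, chr10:19015411-19015660, minus strand: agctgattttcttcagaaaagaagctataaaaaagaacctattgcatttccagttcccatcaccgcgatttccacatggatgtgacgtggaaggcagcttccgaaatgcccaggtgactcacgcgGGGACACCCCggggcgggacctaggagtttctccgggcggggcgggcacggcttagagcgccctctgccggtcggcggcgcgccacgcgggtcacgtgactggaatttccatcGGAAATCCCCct
Rel, chr11:23770970-23771219, minus strand: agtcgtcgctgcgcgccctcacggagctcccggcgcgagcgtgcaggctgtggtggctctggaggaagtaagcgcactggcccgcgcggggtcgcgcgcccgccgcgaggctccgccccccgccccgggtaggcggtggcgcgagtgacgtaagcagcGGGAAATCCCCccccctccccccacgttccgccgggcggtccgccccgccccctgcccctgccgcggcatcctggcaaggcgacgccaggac
Nfkbia, chr12:55492648-55492897, minus strand: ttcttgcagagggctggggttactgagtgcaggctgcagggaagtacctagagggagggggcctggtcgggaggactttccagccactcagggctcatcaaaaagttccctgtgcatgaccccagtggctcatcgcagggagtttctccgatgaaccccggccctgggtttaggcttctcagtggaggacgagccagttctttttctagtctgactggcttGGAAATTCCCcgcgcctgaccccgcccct
Bcl3, chr7:19822734-19822763, minus strand: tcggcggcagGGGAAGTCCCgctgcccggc
The capitals in Rel are 2 overlapping matches, and those in Tnfaip3 are 2 separate ones. Nfkb2, which encodes the p100 precursor of the p52 subunit, held matches in all 3 of its annotated start windows. The only match in the third window is a site that the second window also holds. Matches at the first and the second start include these.
Nfkb2, first start, chr19:46304688-46304717, plus strand: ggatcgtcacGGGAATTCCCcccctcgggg
Nfkb2, second start, chr19:46305695-46305724, plus strand: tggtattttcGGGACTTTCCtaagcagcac
A match describes these letters and shows no binding. Among tested genes with a window, 12.3% of the 389 that fell in the knockout and 14.9% of the 248 that rose held a match, beside 12% of all 12258.

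Of the 10 genes, 3 fell in the knockout and none rose: Bcl3, Tnfaip3 and Rel. Over all genes tested, 4.94% passed the same threshold, 2.97% falling and 1.97% rising; it was an adjusted p under 0.05 in limma with Benjamini-Hochberg adjustment over all 20607 genes. The knockout mean lay below the wild-type mean for 8 of the 10 genes, against 45.9% of all genes, and the median log2 difference was -0.36, against 0.03 over all genes. The knockout and wild-type arrays did not overlap for 4 of the 10, with 3 lower and Nfkbia higher. Over all genes 8.98% did not overlap, 4.44% lower and 4.54% higher. The 10 genes were chosen with earlier results of these data known, so these shares only describe them. Levels are given throughout as log2 signal relative to the 75th percentile of the same array, and differences as knockout minus wild type on the log2 scale followed by ± and limma's standard error (SE). In bulk tissue, fewer cells of a type and less RNA per cell cannot be told apart.

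**Figure D1:**
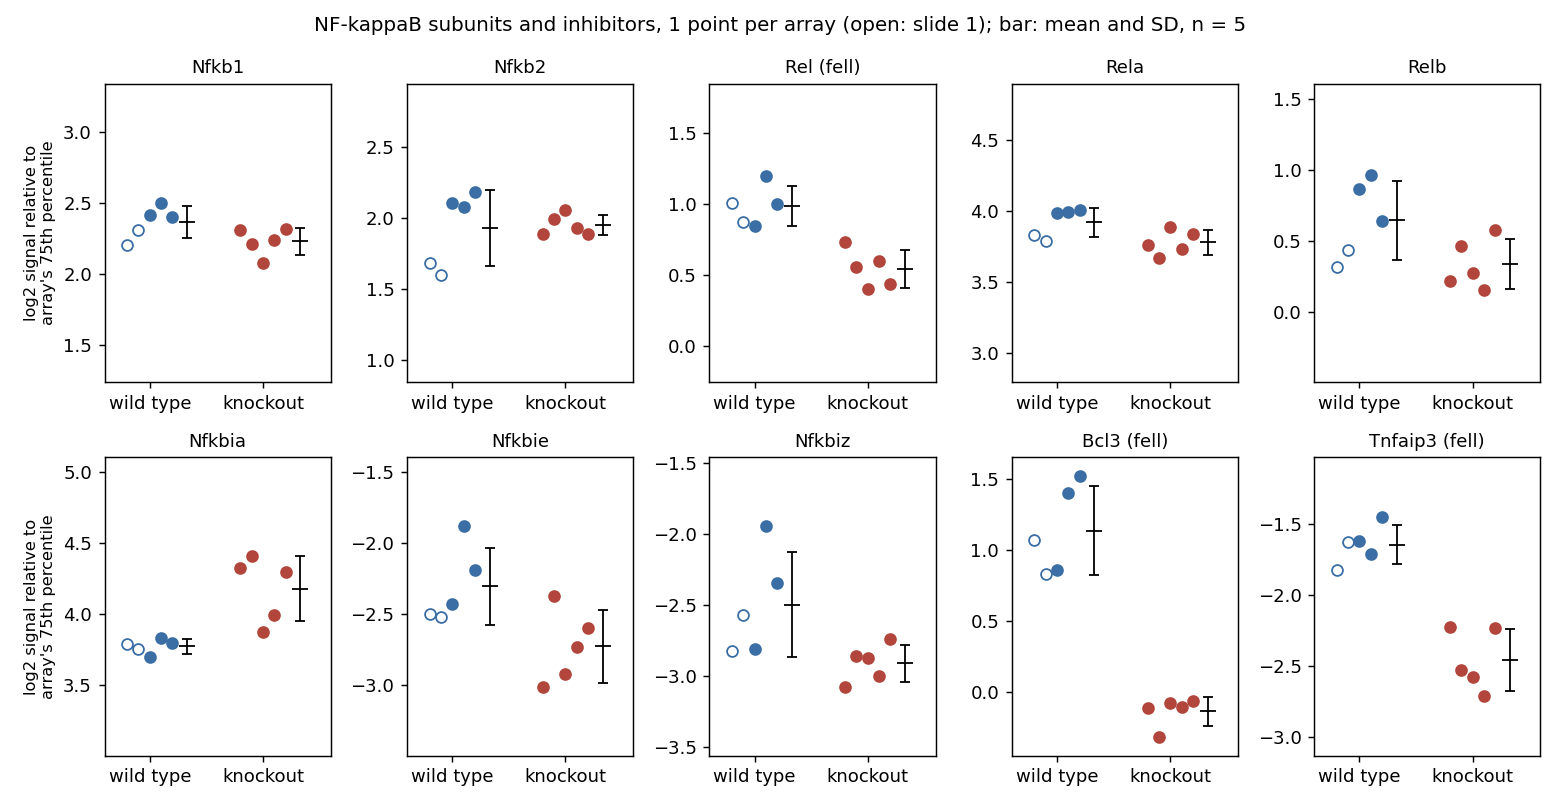
Log2 signal relative to the array's 75th percentile for the 10 genes, 1 panel per gene, wild type in blue and knockout in red; each point is 1 array, open points are the arrays of slide 1, and bars are the mean and SD (n = 5). The panels of Bcl3, Tnfaip3 and Rel show every red point below every blue one, and the panel of Nfkbia shows the reverse; axes span equal ranges but have different origins, so levels are not comparable between panels.

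Bcl3 showed the largest difference of the 10 genes. It encodes an atypical IκB protein that acts in the nucleus, where it binds p50 and p52 dimers. Its log2 level was -0.11, -0.32, -0.07, -0.10 and -0.06 in knockout replicates 1 to 5, and 1.07, 0.83, 0.86, 1.41 and 1.53 in wild-type replicates 1 to 5. The knockout arrays lay close together, with replicate 2 lowest, whereas wild-type replicates 4 and 5 stood above the other wild-type arrays, and the genotypes did not overlap. Bcl3 fell by 1.27 ± 0.14 on the log2 scale (95% interval -1.59 to -0.96, n = 5 each), which is 2.42-fold lower, with a limma adjusted p of 0.00409. The call held in each of the 10 fits that left out 1 array, with adjusted p up to 0.0147. It did not hold with the macrophage score described below as a covariate (-1.25, adjusted p = 0.115). With terms for slide and slide row the difference was -1.38, which sets knockout replicate 1 alone against wild-type replicates 3 to 5. On slide 2 these arrays fill row 1, and row 2 holds only knockout arrays. Within slide 2, row and genotype are therefore largely confounded.

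Tnfaip3 encodes A20, a ubiquitin-editing enzyme that shuts down signalling from the TNF receptor and Toll-like receptors to the IκB kinase. Its log2 level was -2.22, -2.53, -2.58, -2.71 and -2.23 in knockout replicates 1 to 5, and -1.82, -1.63, -1.62, -1.71 and -1.45 in wild-type replicates 1 to 5. All knockout arrays lay below all wild-type arrays, with knockout replicates 1 and 5 nearest to them. Tnfaip3 fell by 0.81 ± 0.12 (95% interval -1.07 to -0.55), 1.75-fold lower, with a limma adjusted p of 0.00980. The call held without each array in turn (adjusted p up to 0.0312). The difference was -0.41 under normexp background correction, with an adjusted p of 0.0143. It missed the threshold with the atrial score described below (-0.74, adjusted p = 0.0589) or the macrophage score (-0.74, adjusted p = 0.143) as a covariate. With slide and row terms, which rest on knockout replicate 1 alone among the knockouts, the difference was -0.63.

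Among the subunits that carry a transactivation domain, Rel fell and Rela and Relb did not pass the test. Rel encodes c-Rel, best known from lymphocytes and myeloid cells. Its log2 level was 0.73, 0.55, 0.40, 0.60 and 0.43 in knockout replicates 1 to 5, and 1.01, 0.88, 0.85, 1.20 and 1.00 in wild-type replicates 1 to 5. The genotypes did not overlap, but knockout replicate 1 lay close below wild-type replicate 3. Rel fell by 0.44 ± 0.10 (95% interval -0.66 to -0.23), 1.36-fold lower, with a limma adjusted p of 0.0329. The call held only without knockout replicate 1 (adjusted p = 0.0400) or without wild-type replicate 3, and was lost without each of the other 8 arrays, with adjusted p up to 0.0746. It was also lost within slide 2 alone (adjusted p = 0.0735), where the difference was -0.47, and with the mean of its 2 probes (adjusted p = 0.0560). The same held without the filter (adjusted p = 0.0761) and with the marker scores as covariates. With slide and row terms, which again rest on knockout replicate 1 alone among the knockouts, the difference was -0.28.

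Rela encodes p65, the main activating subunit of the canonical pathway. Its levels were 3.67 to 3.89 in knockout and 3.79 to 4.01 in wild type, a difference of -0.14 ± 0.08 (95% interval -0.32 to 0.04, adjusted p = 0.274). Relb encodes the activating subunit that pairs with p52 in the non-canonical pathway. Its levels were 0.16 to 0.58 in knockout and 0.32 to 0.97 in wild type, a difference of -0.31 ± 0.14 (95% interval -0.62 to 0.00, adjusted p = 0.188). For both genes the ranges of the genotypes overlapped.

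The precursor subunits did not pass the test either. Nfkb1 encodes p105, the precursor of p50, and measured 2.08 to 2.32 in knockout and 2.21 to 2.51 in wild type, a difference of -0.14 ± 0.08 (95% interval -0.32 to 0.05, adjusted p = 0.314). For Nfkb2 the log2 level was 1.89, 2.00, 2.05, 1.93 and 1.89 in knockout replicates 1 to 5, and 1.69, 1.60, 2.11, 2.07 and 2.18 in wild-type replicates 1 to 5. The wild-type arrays of Nfkb2 split by slide: replicates 1 and 2, the only arrays of slide 1, lay below all knockout arrays and replicates 3 to 5, on slide 2 with the knockout arrays, lay above them. The Nfkb2 difference was 0.02 ± 0.12 over all arrays (95% interval -0.25 to 0.29, adjusted p = 0.928) and -0.17 within slide 2 (adjusted p = 0.292), so its direction turned. Both slide 1 arrays lay below the 3 other wild-type arrays for 5 of the 10 genes, Nfkb1, Nfkb2, Rela, Relb and Nfkbie, against 27.4% of all genes tested.

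Nfkbia, which encodes the classical inhibitor IκBα, had a difference above 0, where Nfkbie, Nfkbiz, Bcl3 and Tnfaip3 had differences below 0. Its log2 level was 4.32, 4.41, 3.87, 3.99 and 4.29 in knockout replicates 1 to 5, and 3.79, 3.75, 3.69, 3.83 and 3.79 in wild-type replicates 1 to 5. The wild-type arrays lay close together, knockout replicates 1, 2 and 5 were high, and replicates 3 and 4 lay just above the wild-type range, so the genotypes did not overlap. The difference was 0.41 ± 0.11 (95% interval 0.16 to 0.65) and missed the threshold, with a limma adjusted p of 0.0595. Without knockout replicate 3 the difference was 0.48 (adjusted p = 0.0307), and it also passed when only probes well above background on all 10 arrays were tested (adjusted p = 0.0443). Of the 10 fits without 1 array, only 1 passed, with adjusted p up to 0.118. The difference stayed above 0 but missed the threshold within slide 2 (adjusted p = 0.154). It also missed with the atrial score (adjusted p = 0.184) or the macrophage score (adjusted p = 0.236) as a covariate.

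Nfkbie and Nfkbiz encode IκBε, a cytoplasmic inhibitor, and IκBζ, a nuclear one that is induced by Toll-like receptor and interleukin-1 signals. Nfkbie measured -3.02 to -2.38 in knockout and -2.52 to -1.88 in wild type, a difference of -0.43 ± 0.16 (95% interval -0.77 to -0.08, adjusted p = 0.118). Nfkbiz measured -3.08 to -2.74 in knockout and -2.82 to -1.94 in wild type, a difference of -0.41 ± 0.16 (95% interval -0.77 to -0.06, adjusted p = 0.137). Neither passed, and the genotypes overlapped for both. Under normexp background correction the differences were -0.05 for Nfkbie and -0.08 for Nfkbiz.

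**Figure D2:**
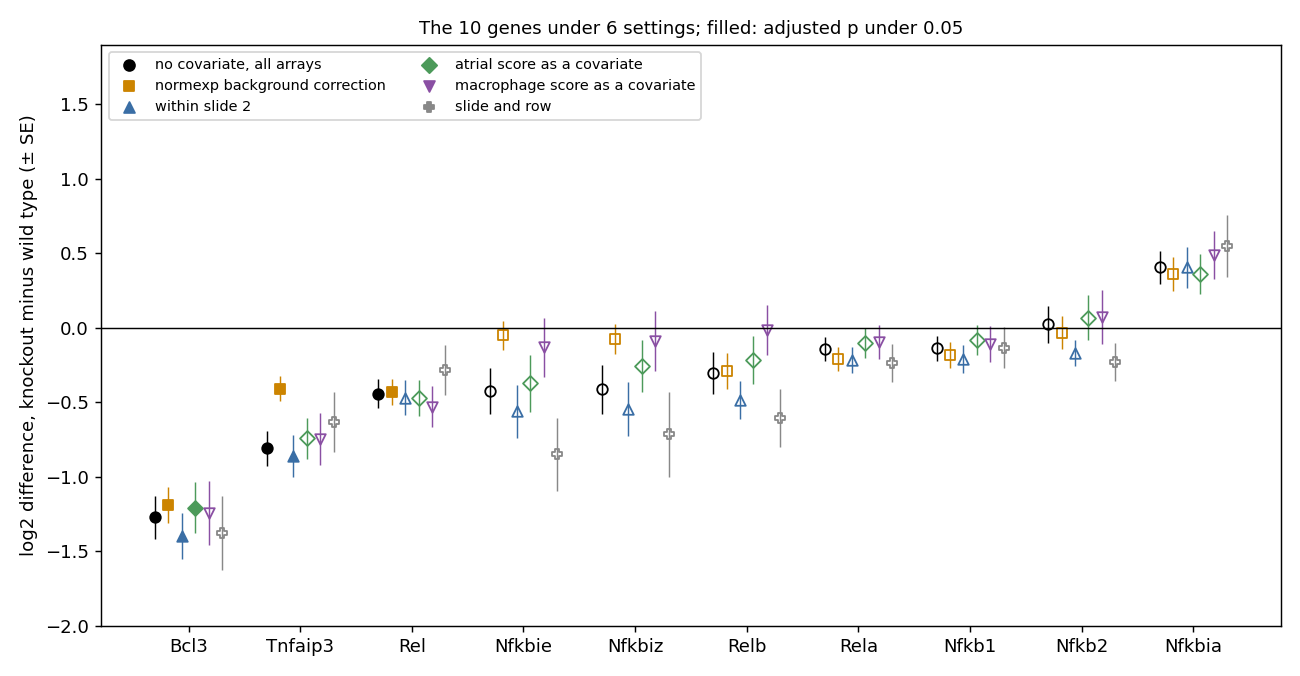
Log2 difference, knockout minus wild type, for each of the 10 genes under 6 settings; markers are the limma estimate, lines its SE, and filled markers have an adjusted p under 0.05. Bcl3 lies between -1.40 and -1.19 in all 6, Nfkbia lies above 0 in all 6, and Nfkb2 lies on both sides of 0.

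Probes of the same gene were then compared, each named by its mm9 coordinates (no gene models of mm9 were used). Of the 18 kept probes, 3 fell and none rose, while of all 30693 kept probes 4.44% passed and 2.76% fell. These are the probes already described, Bcl3 at chr7:20393826-20393885, Tnfaip3 at chr10:18720776-18720835 and Rel at chr11:23637051-23637110. The second Rel probe, at chr11:23641729-23641788, differed by -0.28 ± 0.14 (adjusted p = 0.244) and was well above background on only 3 of 5 knockout arrays. The second Nfkbiz probe, at chr16:55817859-55817918, differed by -0.57 ± 0.15 (adjusted p = 0.0542), with all knockout arrays below all wild-type arrays, but only 2 of 5 knockout arrays were well above background there. The remaining Nfkbiz probe and the second Bcl3 probe were well above background on no knockout array and 1 wild-type array each, and gave no measured difference.

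Relb had probes with differences on both sides of 0, and its pair differed most of the 8 probe pairs compared. Its brightest probe, at chr7:20191722-20191781, is the one given above, and its neighbour at chr7:20191939-20191998 differed by -0.25. The other Relb probe, at chr7:20203058-20203117, was designed on an Ensembl transcript and measured -1.26, -1.18, -0.67, -0.90 and -1.08 in knockout replicates 1 to 5, against -1.28, -1.15, -1.56, -1.75 and -1.37 in wild-type replicates 1 to 5. Wild-type replicate 2 of this probe fell within the knockout range, replicate 1 lay just below it, and the 3 wild-type arrays of slide 2 lay lower still. The difference was 0.40 ± 0.14 (95% interval 0.09 to 0.72, adjusted p = 0.113). The difference between the 2 Relb probes changed by 0.71 with genotype, with a two-sided exact permutation p of 0.0476 and 0.381 after adjustment over the 8 probe pairs of the 10 genes. The 3 Nfkb1 probes gave -0.14, 0.00 and -0.67, the last with a 95% interval of -1.21 to -0.12 and an adjusted p of 0.128. The 2 Nfkb2 probes gave 0.02 each, and the 2 Rela probes -0.14 and 0.02.

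**Figure D3:**
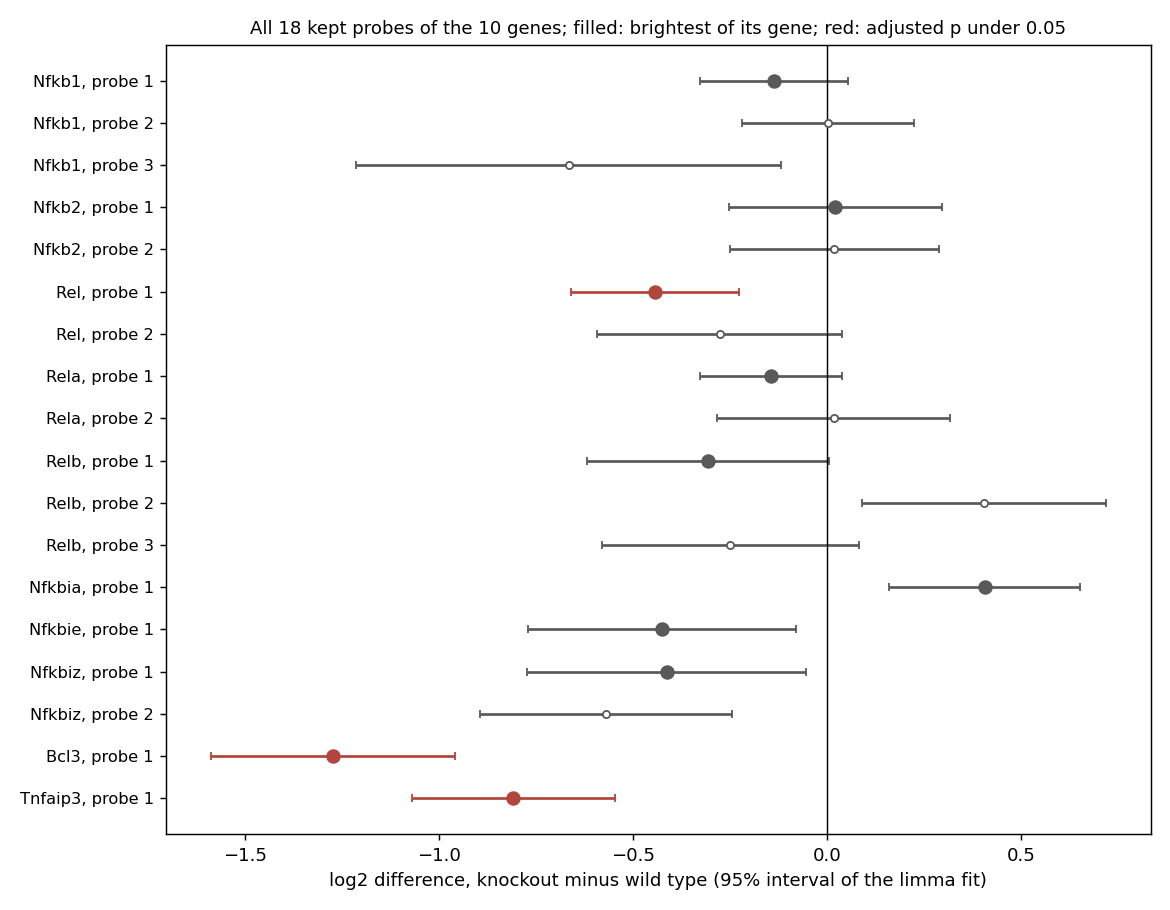
Log2 difference, knockout minus wild type, for the 18 kept probes of the 10 genes, with the 95% interval of the limma fit; filled markers are the brightest probe of each gene and red ones have an adjusted p under 0.05. Only the Bcl3, Tnfaip3 and Rel probes are red, and the second Relb probe lies above 0 while the other Relb probes lie below it.

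Several measures of the arrays moved with genotype beside these genes. The 75th percentile of spot signal was 286 to 460.5 on knockout arrays and 462 to 542 on wild-type arrays. The mean log2 level of 9 macrophage markers, among them Cd68, Csf1r and Adgre1, was 1.43 to 1.97 in knockout and 1.94 to 2.21 in wild type; all 9 were detected, all 9 had a difference below 0, from -0.58 to -0.13, and none passed the test. With this score as a covariate the differences were -0.01 for Relb, -0.13 for Nfkbie and -0.09 for Nfkbiz. They were -1.25 for Bcl3, -0.74 for Tnfaip3 and -0.53 for Rel, and none of the 10 genes passed. Over all 20607 genes, 3 rose and 3 fell in this fit, so almost no gene kept a call. The score of 10 endothelial markers was 2.79 to 3.03 in knockout and 3.05 to 3.18 in wild type, with 9 of 10 below 0 and 2 that fell; its part in the results was not tested. Cardiomyocyte markers, whose score of 8.10 to 8.5 in knockout lay above that of 7.63 to 8.12 in wild type on average, were all 11 detected, as the labelled tissue requires, and none passed. Exact permutation p-values for these 4 measures were 0.00794, 0.0159, 0.00794 and 0.0159, the first being the smallest that 5 against 5 can give, and each 0.0437 after adjustment over the 11 measures compared. Spots well above background made up 45.8% to 58.3% in knockout and 55.7% to 60.4% in wild type (exact permutation p = 0.0397, adjusted 0.0728). The T cell and B cell scores were higher in knockout on average, by 0.36 and 0.29 (exact permutation p = 0.0952 and 0.0873). The neutrophil and fibroblast scores differed by -0.36 and -0.34 (exact permutation p = 0.222 and 0.103). None of these scores passed after adjustment. Of their markers, Cd4 and Elane rose and Postn fell. The atrial score, the mean log2 level of Myl7, Myl4 and Sln, was -2.75 to 1.56 in knockout and -3.02 to 4.81 in wild type (exact permutation p = 0.127, adjusted 0.140), and all 3 markers had a difference below 0. The corresponding fat score (Retn, Cidec, Car3 and Cfd) was -5.04 to -2.96 in knockout and -4.17 to 0.29 in wild type (exact permutation p = 0.0397, adjusted 0.0728), with all 4 below 0, and none of the 7 atrial and fat markers passed. With the atrial score as a covariate Bcl3 kept its call (-1.21, adjusted p = 0.0325) and Rel did not (adjusted p = 0.102). With atrial and fat scores together Bcl3 kept it again (-1.37, adjusted p = 0.0372), while Tnfaip3 (adjusted p = 0.151) and Rel (adjusted p = 0.179) did not. Over all genes, 26 rose and 31 fell with the atrial score, and 3 rose and 5 fell with both scores. Wild-type replicate 4 was the highest of the 10 arrays for 5 of the 10 genes and replicate 5 for 4, against 7.4% and 6.7% of all genes. These shares are not like for like. The difference was below 0 for 8 of the 10 genes and for 45.9% of all genes, and a wild-type array is more often highest for such genes. Replicate 4 had the highest macrophage score (2.21). Wild-type replicate 2, on slide 1, had the next highest (2.08), was the highest array for none of the 10 genes and lay above its group's mean for 1. What raised the values of replicates 4 and 5 was not tested. None of the 3 Hipk2 probes kept shares 15 bases with the deletion, and their differences of -0.01, 0.04 and 0.11 do not check the genotype.

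Other genes of the pathway were read from lists of 126 genes, which were chosen with earlier results of these data known. Of these, 107 were tested: 2 rose, 11 fell and 94 did not pass, with a median of -0.11. Over all genes tested, 1.97% rose and 2.97% fell, with a median of 0.03. Counts and medians of the lists only describe the genes in them. Among 29 kinases and adaptors, 3 fell. Myd88, the adaptor of Toll-like and interleukin-1 receptors, fell by 0.49 ± 0.08 (adjusted p = 0.0132). Irak3, which restrains that adaptor's kinase complex, fell by 0.58 ± 0.11 (adjusted p = 0.0239), and Map3k14, the kinase NIK that drives processing of p100, fell by 0.48 ± 0.10 (adjusted p = 0.0280). The median of the list was -0.09, and the remaining 26 did not pass.

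Among 13 receptors, 3 fell and the median was -0.26. These were Tnfrsf1a, the main TNF receptor (-0.60 ± 0.10, adjusted p = 0.0162), Il1r1, the interleukin-1 receptor (-0.55 ± 0.12, adjusted p = 0.0301), and Tnfrsf12a, the receptor for TWEAK (-1.49 ± 0.37, adjusted p = 0.0479), whose genotypes overlapped. Of 7 ligands, Tnf rose by 0.54 ± 0.12 (adjusted p = 0.0386), with all knockout arrays above all wild-type arrays. Il18 was lower by the fit (-0.46 ± 0.09, adjusted p = 0.0241), but its probe was well above background on only 2 of 5 knockout arrays and its difference was 0.13 under normexp background correction. The ligand median was 0.27.

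Of 38 known target genes, 4 fell and 1 rose, with a median of -0.29 against 0.03 over all genes. Differences were below 0 for 28 and above 0 for 10, which only describes this list. Some of the lowest values came from genes that passed the filter through their wild-type signal. In the knockout, Cxcl5 (-1.23), Ptx3 (-1.16) and Mmp9 (-0.92) were too dim on every array, and Saa3 (-1.17) on all but 1. The sizes of these 4 differences are therefore uncertain, and none of the 4 passed. Ccl2, a monocyte chemokine, fell by 1.85 ± 0.21 (3.61-fold lower, adjusted p = 0.00409). Bcl2a1d, an anti-apoptotic BCL2 relative with near-identical copies that may share its probe, fell by 1.03 ± 0.17 (adjusted p = 0.0132), Junb, an AP-1 subunit, by 0.94 ± 0.13 (adjusted p = 0.00904), and Icam1, a leukocyte adhesion molecule, by 0.65 ± 0.16 (adjusted p = 0.0438). Gadd45b, a stress-response gene, rose by 0.85 ± 0.22 (adjusted p = 0.050, just under the threshold), with overlapping genotypes. Of the 27 tested targets with a RefSeq window 37% held a match to the NF-κB consensus, and none of the 3 that fell did.

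No gene passed among the 3 other IκB family genes or the 17 deubiquitinases, linear ubiquitin genes and brakes. Nfkbid differed by -0.22 (adjusted p = 0.298) and Nfkbil1 by 0.06 (adjusted p = 0.729). Commd1, which promotes turnover of RELA, differed by 0.36 (adjusted p = 0.0894) and Tnip3, which binds A20, by 0.71 (adjusted p = 0.0949). Of the 13 pathway genes that passed, 5 did so in all 10 fits without 1 array: Ccl2, Junb, Bcl2a1d, Myd88 and Tnfrsf1a. Another 3, Irak3, Map3k14 and Il18, passed in 5 to 9 of them, Il18 with only 2 of 5 knockout arrays well above background. The remaining 5 passed in fewer: Il1r1 in 4, Tnfrsf12a, Icam1 and Tnf in 2 each, and Gadd45b in 1. Of the 13, 6 passed within slide 2. The rises of Tnf and Gadd45b were among those lost within slide 2 (adjusted p = 0.0895 and 0.167).

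**Figure D4:**
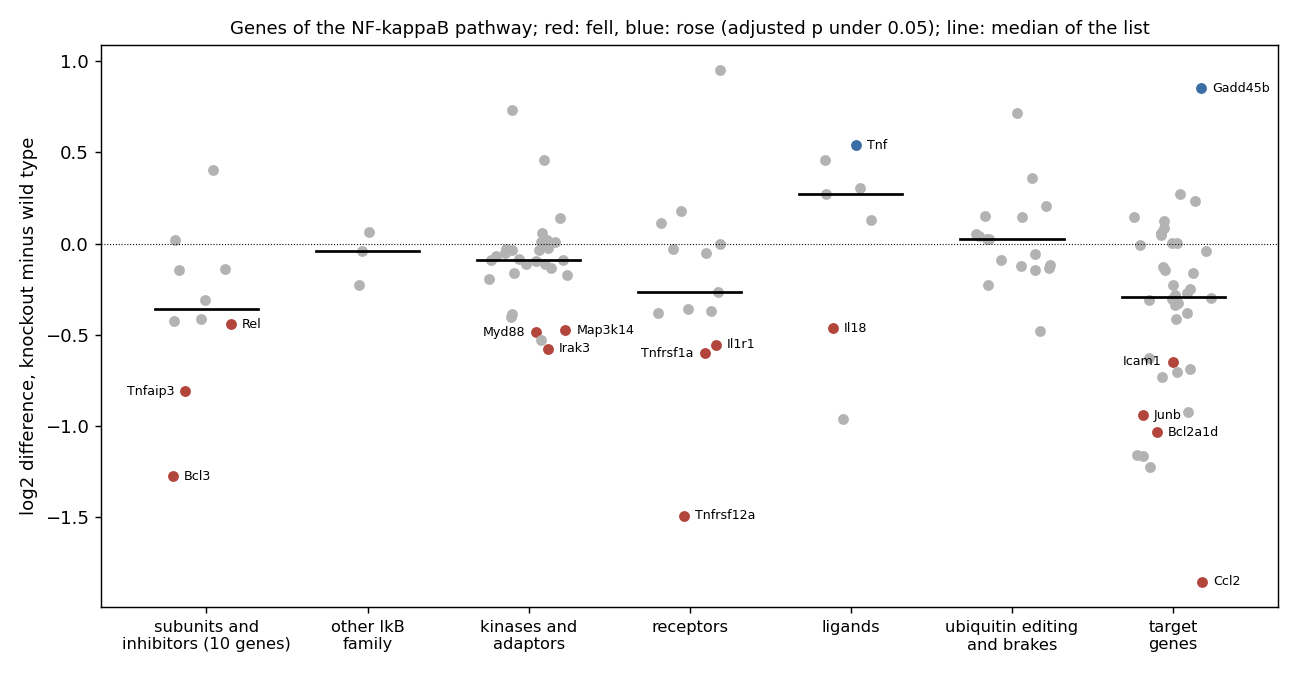
Log2 difference, knockout minus wild type, for the 10 genes and for the tested genes of 6 pathway lists; each point is a gene, black lines are list medians, and red and blue points fell or rose at an adjusted p under 0.05. Falls appear among kinases and adaptors, receptors, ligands and targets, and the only rises are Tnf and Gadd45b. The ligand that fell is Il18, whose probe was well above background on only 2 of 5 knockout arrays.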

How the data were processed

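The authors deposited 1-colour scanner files whose spot intensity, per the file headers, was background-subtracted within each array on a linear scale by Agilent Feature Extraction 10.7.1.1 (version per the submitters' processing notes). They also deposited a value table on a log2 scale. Across genes, each of its columns followed its own array (r from 0.923 to 0.997) and no other (r up to 0.529); all columns have a median of 4.75. How its background was treated is not given in the sources used here; it was an alternative only. The main value is log2 of the processed intensity minus the array's 75th percentile over 59305 non-control spots. A probe was kept if well above background on at least 4 of 5 arrays of 1 genotype; a gene is its kept probe with the highest mean. Genotypes were compared in limma 3.58.1 (R 4.3.3), tested on simulated data, with Benjamini-Hochberg adjustment over all genes. The number of arrays limits the precision.

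Measures of whole arrays were tested by exact permutation, two-sided, over 252 arrangements. Named are the 10 genes with every probe and, per pathway list, up to 6 genes past the threshold by adjusted p, or otherwise the 2 with the smallest p. The members and lists were chosen with earlier results of these data known. Promoter sequences are RefSeq's on GRCm38.p6, which held windows for 7 of the 10 genes; Nfkb1, Relb and Nfkbiz had no entry. Alternatives were other background corrections, normalizations and filters, the deposited table, the mean of probes, slide, slide row, replicate number or marker scores as terms, and leaving out each array.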

Additional observations from a re-analysis of the deposited data

Results flagged for a closer look

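Bcl3 in knockout replicate 2 lay apart from the other knockout arrays, at -0.32 against -0.11 for the next lowest. The gap was 0.797 of the range of the knockout group, above the critical value of 0.71 for 5 samples. In all, 20 groups were checked, and chance alone places about 1 in 20 groups above that value. The Bcl3 difference kept its call without this array (adjusted p = 0.0147).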

How the results depend on the processing

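Among the 10 genes, 3 falls were also called with normexp, quantile normalization, the deposited table, slide as a block and probes above background on all 10 arrays, which added 1 rise, Nfkbia. Falls numbered 1 with the atrial score or with atrial and fat scores as covariates (Bcl3 each time), and 0 with the macrophage score or with slide and row, where the genotype contrast rests on knockout replicate 1 against wild-type replicates 3 to 5. Without 1 array they ranged from 2 to 3, with 0 to 1 rises (Nfkbia without knockout replicate 3); probes gave the same ranges, and 1 probe rose under normexp. Leaving out knockout replicates 3 and 4, chosen after seeing the data, gave 1 rise. Nfkb2 turned to -0.033 (normexp), -0.17 (slide as a block or within slide 2), -0.23 (slide and row), -0.039 (atrial and fat), -0.0051 (without knockout replicates 3 and 4) and, without 1 array, as low as -0.061, against 0.085 at most; Nfkbid turned to 0.064 and Il18 to 0.13 (normexp), and Nfkbil1 to -0.13 (slide and row). The cause of these turns was not tested.

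Pathway falls, 11 in the main result, were 3 without the filter and without knockout replicates 3 and 4, 1 with the atrial score, 0 with atrial and fat, macrophage or slide and row terms, and 5 to 11 without 1 array. Pathway rises, 2 in the main result, were 7 with normexp, 0 without the filter and with every slide, replicate or marker term, and 0 to 2 without 1 array. Over all genes, against 405 rises and 612 falls, there were 2233 and 878 with normexp (71.8% rises against 39.8%), 92 and 81 without the filter, where the median of all genes was 0.24, 140 and 318 within slide 2, 26 and 31 with the atrial score, 3 and 5 with atrial and fat, 3 and 3 with the macrophage score, and 134 and 187 without knockout replicates 3 and 4. Slide as a block gave 246 rises. Slide and row gave 0 and 0 in limma, with 2788 genes at an unadjusted p under 0.05. Without 1 array, rises ranged from 107 to 389 and falls from 167 to 593.

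Replicate numbers did not pair the samples (correlations of -0.11 to 0.05), and the replicate block gave 46 rises and 118 falls over all genes, 2 pathway falls and 0 pathway rises; Bcl3 and Tnfaip3 kept their calls under the block and Rel did not (adjusted p = 0.0767).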
